A study of Mus musculus with 12 samples.

Results

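The uncoupling proteins Ucp1, Ucp2 and Ucp3 were the 3 genes of 25124 whose symbol in the authors' table of expression values is Ucp1, Ucp2 or Ucp3, and all 3 passed the filter on low values in every comparison. Interscapular brown adipose tissue (BAT) of male C57B/6J mice was profiled by RNA-seq in 12 libraries that fall into 4 groups of 3. WT mice and their Txnip-/- littermates, which lack thioredoxin-interacting protein, were 10 weeks old and had spent 1 week at 23 °C (room temperature, RT) or at 30 °C (thermoneutrality, TN, where mice need no extra heat). Groups are named by temperature and then genotype, as in RT WT or TN Txnip-/-. The loss of Txnip was not limited to BAT, and the authors leave a deletion specific to brown adipocytes to later studies. The comparisons ask how Txnip and housing temperature relate to uncoupling protein expression. Nothing in the labels says whether each library came from a mouse of its own, so the tests measure the spread between libraries.

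Uncoupling proteins are carriers of the inner mitochondrial membrane. UCP1 is the protein by which brown adipocytes make heat: it lets protons return to the matrix without making ATP, so that fuel is burned as heat. Cold acts on it through noradrenaline from sympathetic nerves, which raises cyclic AMP in the brown adipocyte, drives Ucp1 transcription and releases the fatty acids that both fuel and activate UCP1. UCP2 is made in many cell types, among them macrophages and lymphocytes, and UCP3 mainly in skeletal muscle and BAT, and neither is regarded as the source of brown fat heat. Transcription of Ucp3 responds to fatty acids through the nuclear receptors of the PPAR family.

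Ucp1 (NM_009463) lies on the plus strand of mouse chromosome 8, at 83290348-83298456 of mm10, with 6 exons and a transcript of 1636 bases. Ucp3 (NM_009464) at 100472991-100486432 and Ucp2 (NM_011671) at 100493358-100499629 are neighbours on the plus strand of chromosome 7, with 6926 bases from the end of Ucp3 to the start of Ucp2. The transcript of Ucp3 has 7 exons and 2439 bases, and the counted transcript of Ucp2 has 1566 bases, while the GENCODE transcript compared with it runs on to 100502020. Within the 3 counted spans, no exon of another annotated gene overlapped an exon of the GENCODE transcript compared. Introns were not checked. The coding sequences of 924, 930 and 927 bases for Ucp1, Ucp2 and Ucp3 were 75.9% identical between Ucp2 and Ucp3, 64.2% between Ucp1 and Ucp3 and 63.7% between Ucp1 and Ucp2. Their longest shared run was 24 bases, and no stretch of the read length of 75 bases was shared, so a read lying in the coding sequence of one had no identical copy in another.

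The 250 bases before the start of each gene are shown because the 3 genes changed in different ways between the groups. They come from RefSeq on GRCm38.p6, 5′ to 3′ on the gene's strand, at chr8:83290098-83290347 for Ucp1, chr7:100493108-100493357 for Ucp2 and chr7:100472741-100472990 for Ucp3. Capitals mark matches on either strand to 5 short motifs, chosen with these sequences in view.
Ucp1: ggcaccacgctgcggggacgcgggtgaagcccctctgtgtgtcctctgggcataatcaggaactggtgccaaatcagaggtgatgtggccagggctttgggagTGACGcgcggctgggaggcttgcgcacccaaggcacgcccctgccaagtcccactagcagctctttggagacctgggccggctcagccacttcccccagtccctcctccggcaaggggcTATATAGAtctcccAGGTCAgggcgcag
Ucp2: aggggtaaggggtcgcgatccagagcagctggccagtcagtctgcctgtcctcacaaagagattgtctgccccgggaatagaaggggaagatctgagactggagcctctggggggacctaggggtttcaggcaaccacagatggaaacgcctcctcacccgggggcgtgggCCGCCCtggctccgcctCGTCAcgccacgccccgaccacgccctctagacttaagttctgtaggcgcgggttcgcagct
Ucp3: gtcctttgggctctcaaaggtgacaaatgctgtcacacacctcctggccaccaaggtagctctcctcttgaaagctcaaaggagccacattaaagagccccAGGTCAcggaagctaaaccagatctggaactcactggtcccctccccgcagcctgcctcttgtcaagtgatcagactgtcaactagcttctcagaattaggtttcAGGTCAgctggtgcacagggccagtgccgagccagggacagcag
The motifs were the nuclear receptor motif AGGTCA, held by 14.0% of the 32851 promoter windows of this length, the cyclic AMP response element core TGACG (17.8%), the TATA box written TATANA (22.6%), the GC box GGGCGG (32.7%) and CCAAT (33.8%). Ucp1 had AGGTCA 9 to 14 bases before its start, TGACG 143 to 147 bases before it and overlapping TATANA matches 21 to 28 bases before it. Ucp2 had TGACG and GGGCGG on the minus strand, and Ucp3 had AGGTCA at 2 places, 39 to 44 and 144 to 149 bases before its start. CCAAT was in none of the 3 windows. CpG dinucleotides numbered 12 in the Ucp1 window, 16 in that of Ucp2 and 3 in that of Ucp3, against a median of 6 over all windows. A match is a description of letters and not a binding site, and the known distal enhancer of Ucp1 lies outside this window.

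Expression is given in TPM, a transcript abundance scaled for transcript length and library size, so that levels of different genes can be compared. The file headers give 29.9 to 47.4 (in units of 1e6) tags per library, the reads that HOMER took in after alignment. Libraries of one group correlated at 0.985 to 0.993 over genes. The targeted gene Txnip averaged 613 TPM ± 70.8 at RT and 1131 TPM ± 92.7 at TN in WT (SD, n = 3), against 29.0 TPM ± 5.59 at RT and 12 TPM ± 2.1 at TN in Txnip-/-, so each library matched its genotype label. Of 8 brown adipocyte markers other than Ucp1, Cidea, Cox8b and Cox7a1 were abundant in every group, at group means of 774 TPM or more. The others were lower, and in TN Txnip-/- Elovl3 averaged 0.334 TPM and Dio2 1.06 TPM, so not each defining marker of BAT was clearly present there.

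Ucp1 was the most abundant of the 3 genes in each of the 12 libraries. At RT it measured 4366, 3809 and 3770 TPM in WT and 2527, 3900 and 2673 TPM in Txnip-/- (replicates 1 to 3), where replicate 2 reached the WT values and the others lay below all of them. The TN libraries measured 1136, 621 and 686 TPM for WT and 255, 154 and 339 TPM for Txnip-/-, so that these groups overlapped neither each other nor those at RT. Means for WT were 3982 TPM ± 333 at RT and 814 TPM ± 281 at TN, and for Txnip-/- 3033 TPM ± 754 and 249 TPM ± 92.7 (SD, n = 3). Among the 25124 genes of a library, Ucp1 ranked by TPM between 4 and 9 in WT and 7 and 16 in Txnip-/- at RT, and between 57 and 135 in WT and 251 and 555 in Txnip-/- at TN.

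Ucp2 ran the other way. At RT its level was 33.9, 37.5 and 45.6 TPM in WT and 53.7, 50.4 and 62.9 TPM in Txnip-/-, all above the WT libraries. At TN the values were 46.7, 54.5 and 49.2 TPM in WT and 91.1, 116 and 92.8 TPM in Txnip-/-, again without overlap. The means rose in the order RT WT (39.0 TPM ± 6.0), TN WT (50.1 TPM ± 3.99), RT Txnip-/- (55.7 TPM ± 6.49) and TN Txnip-/- (99.9 TPM ± 13.9), and of these neighbours TN WT and RT Txnip-/- overlapped.

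For Ucp3 at RT, WT libraries held 109, 118 and 140 TPM and Txnip-/- libraries 112, 111 and 82.1 TPM, so that the genotypes overlapped. At TN the WT libraries held 22.6, 22.6 and 24.4 TPM, the tightest group of all, and the Txnip-/- libraries 43.7, 56.0 and 61.9 TPM. These 2 groups overlapped neither each other nor those at RT. From highest to lowest, the group means were 122 TPM ± 16.1 (RT WT), 102 TPM ± 17.0 (RT Txnip-/-), 53.8 TPM ± 9.25 (TN Txnip-/-) and 23.2 TPM ± 1.02 (TN WT).

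**Figure D1:**
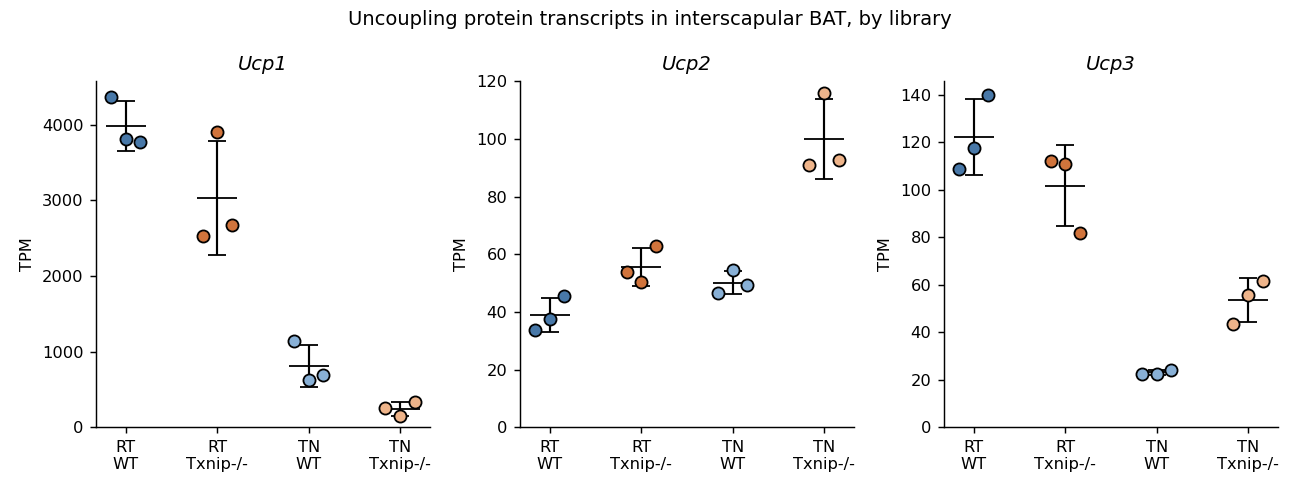
TPM of Ucp1, Ucp2 and Ucp3 (vertical axes, each from 0) in the 3 libraries of each group, as points, with the mean (bar) and SD (whiskers). Ucp1 is lowest and Ucp2 highest in TN Txnip-/-, while Ucp3 is lowest in TN WT.

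The genotype comparison at TN asks how loss of Txnip relates to these genes when no heat is demanded. All 3 genes changed, Ucp1 in the opposite direction to the others. A gene was called when the fitted level of one group was under 0.8 of the other's and limma on log2(TPM + 1) gave a Benjamini-Hochberg adjusted p below 0.05, and 8.66% of the 12891 genes tested were called at TN, 6.49% higher and 2.17% lower in Txnip-/-. Ucp1 fell by 1.72 on the log2 scale (SE 0.31, 95% interval −2.44 to −1.01, adjusted p = 0.0151), a level 3.30-fold lower. Ucp2 rose by 0.98 (SE 0.11, 0.73 to 1.22, adjusted p = 0.00383), or 1.97-fold, and Ucp3 by 1.17 (SE 0.12, 0.89 to 1.44, adjusted p = 0.00351), or 2.24-fold. Groups without overlap were seen for 31.1% of all genes at TN. The adjusted p of Ucp1 reached 0.0499 when TN Txnip-/- replicate 1 was left out. In bulk tissue, fewer brown adipocytes and less RNA per brown adipocyte cannot be told apart.

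At RT, limma called none of the 3 genes, where 1.49% of 11980 genes were called (0.76% higher and 0.726% lower in Txnip-/-), and an unadjusted p under 0.05 was given for 2 of the 3 and for 16% of all genes. Ucp1 differed by −0.42 on the log2 scale (SE 0.16, 95% interval −0.79 to −0.04, limma adjusted p = 0.263) and Ucp3 by −0.27 (SE 0.14, −0.60 to 0.06, adjusted p = 0.412), a value that ranged from −0.35 to −0.12 with one library left out, the smallest without RT Txnip-/- replicate 3. Ucp2 differed by 0.51 (SE 0.12, 0.22 to 0.80, adjusted p = 0.107) and did not overlap between genotypes, as 22.6% of all genes tested did not. One library decided the call of Ucp1: without RT Txnip-/- replicate 2 the difference was −0.61 with an adjusted p of 0.0436, against a range of 0.0436 to 0.504 over the alternatives tried.

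Temperature was compared within each genotype, TN against RT, with all 12 libraries in the fit. Ucp1 and Ucp3 were lower at TN in both genotypes and Ucp2 was higher. In WT, Ucp1 fell by 2.34 on the log2 scale (5.05-fold, SE 0.28, limma adjusted p = 0.000148) and Ucp3 fell by 2.34 as well (5.07-fold, SE 0.14, adjusted p = 7.34e-06). In Txnip-/-, Ucp1 fell by 3.64 (12.5-fold, SE 0.28, adjusted p = 8.42e-06) and Ucp3 fell by 0.91 (1.87-fold, SE 0.14, adjusted p = 0.000374). Ucp2 rose by 0.36 in WT (1.29-fold, SE 0.13, adjusted p = 0.0306) and by 0.83 in Txnip-/- (1.78-fold, SE 0.13, adjusted p = 0.000266).

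The groups did not overlap between temperatures for any of the 3 genes in either genotype, as was so for 57.5% of all genes in WT and 61.1% in Txnip-/-. Calls by temperature were common, with 37.8% of 12486 genes in WT (31.4% higher and 6.39% lower at TN) and 39.2% in Txnip-/- (30.9% higher and 8.27% lower). The median difference of all genes was itself 0.18 in WT and 0.15 in Txnip-/- on the log2 scale. With each library centred on its median, the split of called genes became 1926 higher and 1841 lower in WT, from 3919 and 798, and 2294 higher and 2435 lower in Txnip-/-, from 3858 and 1033. Upper-quartile scaling gave 2867 higher and 1205 lower in WT, and 3207 higher and 1455 lower in Txnip-/-. Under centring, Ucp2 in WT was 0.18 higher with a limma adjusted p of 0.277, so that its call depended on the scaling, and it was also lost without any one of RT WT replicates 1 and 2 and TN WT replicates 2 and 3. The other 5 temperature calls of the 3 genes were kept under both scalings and without any one library. The RT and TN libraries carry different sample numbers in the labels and no date or run, so temperature and any difference in handling cannot be told apart.

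The test of whether the genotype effect differed between temperatures called none of the 3 genes, where 1 of 12486 genes (0.00801%) was called by limma. An unadjusted p under 0.05 was given for all 3, and for 12.6% of all genes. Ucp3 came nearest, with a genotype effect 1.43 higher at TN than at RT on the log2 scale (SE 0.20, 95% interval 0.99 to 1.88, unadjusted p = 1.59e-05 and adjusted p = 0.0776 by limma). The effect on Ucp1 was −1.31 at TN relative to RT (SE 0.40, −2.18 to −0.43, adjusted p = 0.242) and that on Ucp2 was 0.47 (SE 0.18, 0.08 to 0.85, adjusted p = 0.322). For Ucp3 the adjusted p was 0.0446 without RT WT replicate 1 and 0.0301 without TN Txnip-/- replicate 1, and between 0.0301 and 0.19 over the alternatives.

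**Figure D2:**
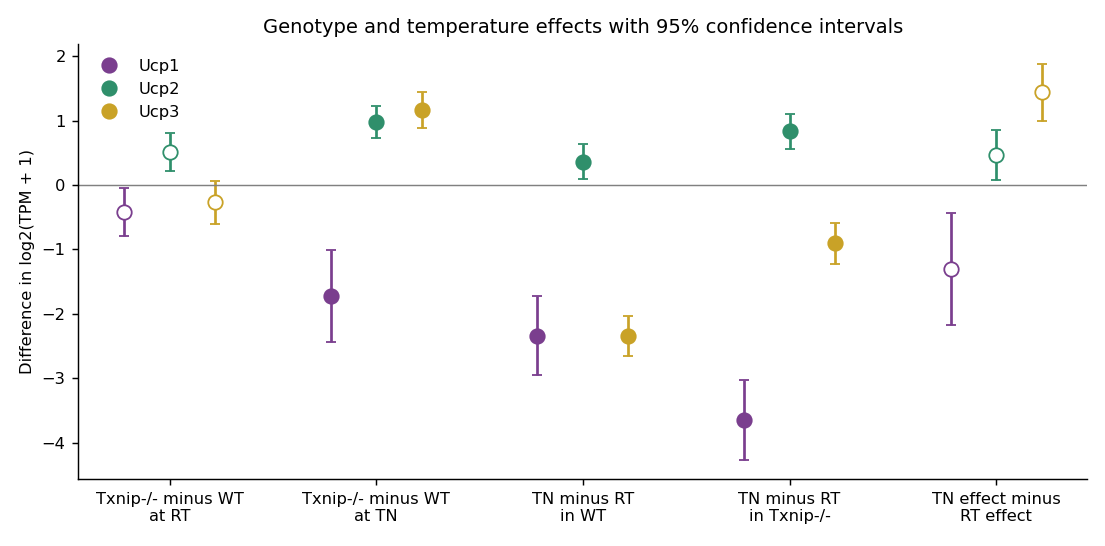
Differences in log2(TPM + 1) of Ucp1, Ucp2 and Ucp3 in each comparison and, at the right, the genotype effect at TN minus that at RT. Points are limma estimates, whiskers 95% confidence intervals, and filled points were called. Ucp1 and Ucp3 lie together in the WT temperature comparison, at −2.34, and far apart in the genotype comparison at TN, at −1.72 and 1.17.

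The summed TPM of the 3 genes at RT was 4143 ± 317 in WT and 3190 ± 756 in Txnip-/-, and at TN 888 ± 277 and 403 ± 84.7 (SD, n = 3). Ucp1 made up 96.1% ± 0.764 of the sum in WT and 94.9% ± 1.10 in Txnip-/- at RT, and 91.2% ± 2.76 in WT at TN. In TN Txnip-/- its share was 65.4%, 47.3% and 68.7% in the 3 libraries, with a mean of 60.5% ± 11.5, below the 9 others. Ucp2 took 0.950% ± 0.201 (WT) and 1.82% ± 0.518 (Txnip-/-) of the sum at RT, and 6.05% ± 2.0 (WT) and 25.9% ± 8.68 (Txnip-/-) at TN. The share of Ucp3 was close to that in RT WT (2.97% ± 0.563) in RT Txnip-/- (3.27% ± 0.785) and TN WT (2.78% ± 0.782), and was 13.6% ± 3.13 in TN Txnip-/-. Counted as transcript mass, TPM times length, Ucp1 held 57.3% ± 11.4 in TN Txnip-/- and 94.7% ± 1.00 in RT WT.

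With 3 libraries against 3, a two-sided exact permutation test cannot give a p below 0.1. That value was reached for the Ucp1 share in the genotype comparison at TN (60.5% against 91.2%) and in both temperature comparisons, for the Ucp2 share in all 4 comparisons, at RT included (1.82% against 0.950%), and for the Ucp3 share between genotypes at TN and between temperatures in Txnip-/-. The Ucp1 share at RT gave an exact p of 0.2, and the Ucp3 share gave 0.7 both between genotypes at RT and between temperatures in WT. Over the 24 such tests of shares and ratios the lowest Benjamini-Hochberg value was 0.133, so no share or ratio passed on 3 libraries a group.

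**Figure D3:**
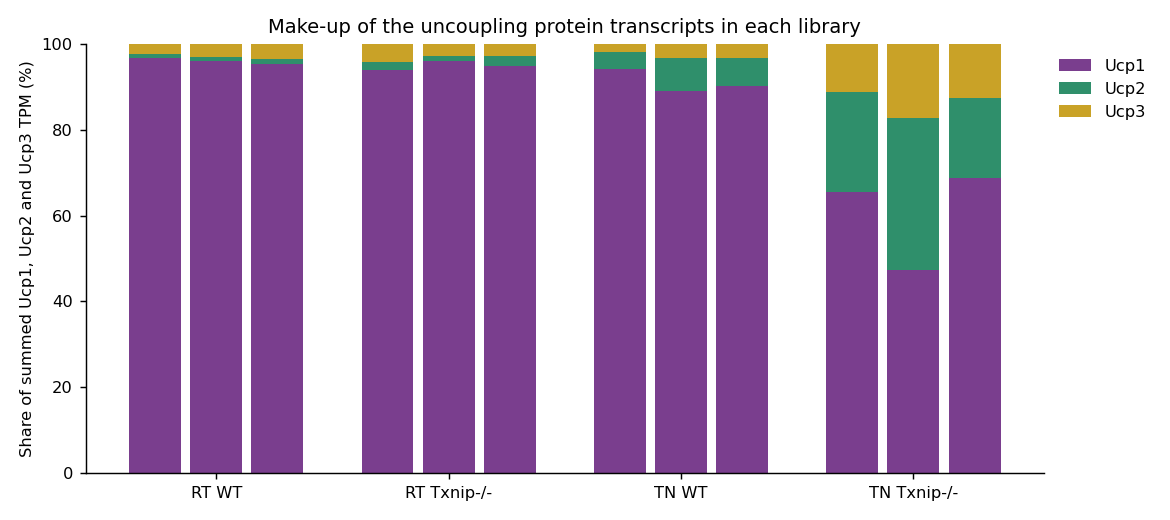
Share of each gene in the summed TPM of Ucp1, Ucp2 and Ucp3 (%, vertical axis), 1 bar per library, replicates 1 to 3 from left to right within each group. Ucp1 fills 88.9% or more of the bar in the first 9 libraries and between 47.3% and 68.7% in the TN Txnip-/- libraries.

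Ratios within a library do not depend on how libraries are scaled to each other. Ucp3 was above Ucp2 in each of the 6 RT libraries and below it in each of the 6 TN libraries, with a mean log2 ratio of 1.65 (WT) and 0.86 (Txnip-/-) at RT and −1.11 (WT) and −0.90 (Txnip-/-) at TN. The ratio of Ucp3 to Ucp1, in contrast, was alike in RT WT (log2 −5.03 ± 0.29), RT Txnip-/- (−4.88 ± 0.34) and TN WT (−5.08 ± 0.50), and was −2.15 ± 0.60 in TN Txnip-/-. As a linear ratio, Ucp1 exceeded Ucp3 by 33.1, 30.1 and 35.3 times in the first 3 of these groups and by 4.69 times in TN Txnip-/-. Ucp1 exceeded Ucp2 at RT by 104 times in WT and 55.6 times in Txnip-/-, and at TN by 16.6 times in WT and 2.59 times in Txnip-/-.

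An exact permutation test that exchanges libraries only within a genotype or a temperature, a form chosen after the values were seen, can reach a two-sided p of 0.005 over its 400 relabellings. Temperature gave that smallest p for the ratio of Ucp3 to Ucp2 (−2.26 on the log2 scale, adjusted p = 0.00857 over 12 such exact tests) and of Ucp2 to Ucp1 (3.60), and genotype gave it for Ucp2 to Ucp1 (1.83). For Ucp3 to Ucp1, genotype gave an exact p of 0.035 (1.54, adjusted p = 0.0467) and temperature 0.065 (1.34, adjusted p = 0.078). Genotype gave an exact p of 0.255 for Ucp3 to Ucp2 (−0.29). The other tests were of levels in log2(TPM + 1). Temperature gave an exact p of 0.005 for each gene. Genotype gave 0.005 for Ucp2 (0.74), 0.015 for Ucp1 (−1.07, adjusted p = 0.0225) and 0.1 for Ucp3 (0.45, adjusted p = 0.109). Some of these pooled values average unlike differences. For Ucp3 to Ucp2 genotype gave −0.79 at RT and 0.21 at TN, and for Ucp3 to Ucp1 0.15 at RT and 2.93 at TN. The temperature difference of Ucp3 to Ucp1 was −0.05 in WT and 2.73 in Txnip-/-.

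**Figure D4:**
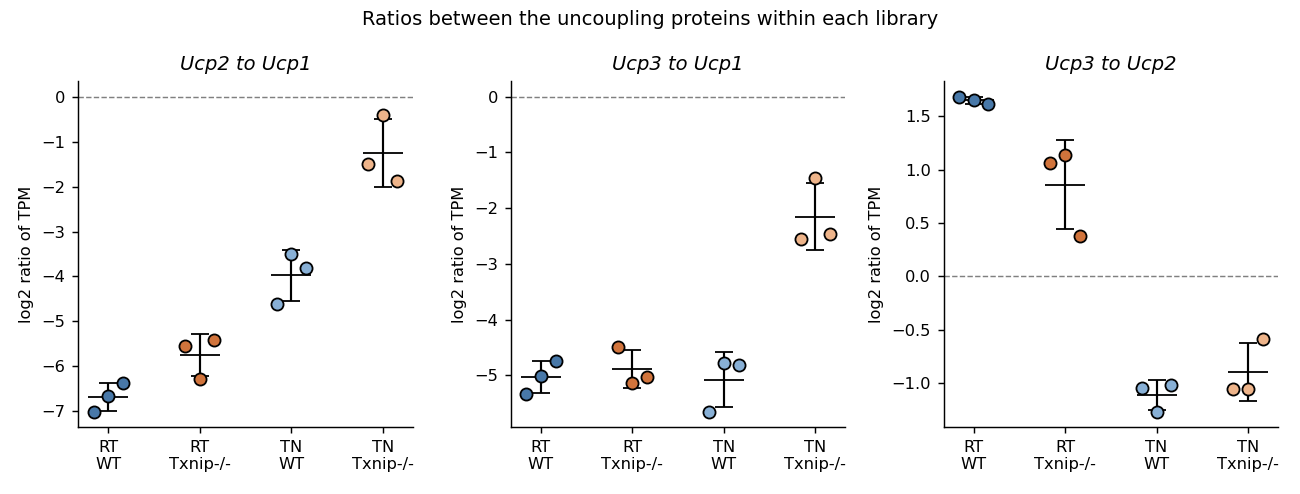
log2 ratios of TPM between pairs of the 3 genes within each library (points), with the group mean (bar) and SD (whiskers); the dashed line marks equal TPM. Ucp3 to Ucp2 crosses that line between RT and TN, and Ucp3 to Ucp1 stands apart in TN Txnip-/- alone.

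Regulators of Ucp1 transcription, activators and repressors alike, were compared as a list of 16, fixed by symbol. At TN 1 was called higher and 2 lower in Txnip-/-, where 6.49% of all genes were called higher and 2.17% lower. By limma 8 had an unadjusted p under 0.05 at TN, against 25.6% of all genes. The median difference was −0.16 on the log2 scale against 0.01 for all genes. At RT limma called none (1.49% of all genes), and 1 had an unadjusted p under 0.05, against 16%. Irf4, a factor that takes part in cold-induced thermogenic transcription, rose by 0.52 at TN (limma adjusted p = 0.0106), from 4.90 to 7.47 TPM. Which cells of the tissue made it was not tested. Esrra, a nuclear receptor of mitochondrial genes, fell by 0.41 (adjusted p = 0.022) and Ebf2, a brown fat identity factor, by 0.40 (adjusted p = 0.027). The largest difference in the list was that of the receptor Ppara, from 143 to 72.3 TPM (−1.09, adjusted p = 0.0656). The coactivator Ppargc1a, from 12.2 to 7.05 TPM at TN, differed by −0.72 (adjusted p = 0.0514), Pparg by −0.46 (adjusted p = 0.132) and Prdm16 by −0.37 (adjusted p = 0.169), and none of these 4 passed. By temperature, 3 were called higher and 2 lower at TN in WT, and 1 higher and 4 lower in Txnip-/-, against 31.4% and 6.39% of all genes in WT and 30.9% and 8.27% in Txnip-/-.

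Of 10 genes of the noradrenaline and thyroid hormone input to Ucp1, 1 was called at TN (8.66% of all genes, 2.17% lower) and none at RT by limma (2 with an unadjusted p under 0.05, against 16% of all genes). The 1 called was Dio2, which makes active thyroid hormone inside the brown adipocyte, with RT means of 65.8 TPM in WT and 31.2 TPM in Txnip-/-, and TN means of 2.96 TPM and 1.06 TPM. It fell by 0.98 at TN on the log2(TPM + 1) scale (SE 0.24, limma adjusted p = 0.0445), a scale that understates changes at such low levels. Adrb3, the beta-adrenergic receptor of adipocytes, differed by −0.20 at TN (adjusted p = 0.777) and −0.21 at RT (adjusted p = 0.574). By temperature, 1 of the 10 was called higher and 3 lower at TN in WT, where 31.4% of all genes were called higher and 6.39% lower. In Txnip-/- 1 was called higher and 4 lower, against 30.9% and 8.27%.

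In the list of 14 genes for fatty acid supply, 3 were called lower in Txnip-/- at TN and none higher, where 2.17% of all genes were called lower and 6.49% higher, and in all 9 differed downwards and 5 upwards. The called genes were Fabp3, a cytosolic fatty acid carrier (−1.18 on the log2 scale, limma adjusted p = 0.0018), Cpt1b, which admits fatty acids to mitochondria (−0.65, adjusted p = 0.0355), and Plin5, a lipid droplet coat protein (−0.56, adjusted p = 0.039). Fabp3 was also the 1 gene of this list called at RT (−0.59, adjusted p = 0.0203), where 1.49% of all genes were called. The median over the list was −0.15 at TN. By temperature, 8 of the 14 were called lower at TN in WT and 9 in Txnip-/-, with none called higher, against 6.39% and 8.27% of all genes lower.

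A list of 11 genes known to respond to fatty acids through PPARs was set beside Ucp3, which belongs to the same class. Of the 9 tested at TN, 1 was called, Acadl, a dehydrogenase of long-chain fatty acid oxidation, which was lower in Txnip-/- (−0.38 on the log2 scale, limma adjusted p = 0.0331), where 8.66% of all genes were called. The median over the 9 was 0.14. At RT limma called none of 10 (2 with an unadjusted p under 0.05), where it called 1.49% of all genes. Between temperatures in WT, 6 of the 10 tested were called lower at TN and 1 higher, against 6.39% of all genes lower and 31.4% higher. In Txnip-/- 8 were called lower and 2 higher, against 8.27% and 30.9%.

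Relatives of the uncoupling proteins in the Slc25 carrier family formed a list of 12. Of 10 tested at TN, 1 was called (8.66% of all genes, 2.17% lower), and 4 had an unadjusted p under 0.05, against 25.6%. The 1 called was Slc25a20, the carnitine-acylcarnitine carrier, lower in Txnip-/- (−0.48 on the log2 scale, limma adjusted p = 0.00979), and the median was −0.02. The most abundant of them in TN WT, the adenine nucleotide carrier Slc25a4, averaged 561 TPM in WT and 495 TPM in Txnip-/- at TN and was not called (−0.18, adjusted p = 0.131). Limma called none of the 9 tested at RT, where 1.49% of all genes were called, and gave 1 an unadjusted p under 0.05, against 16%. By temperature, 1 of 9 was called higher and 2 lower at TN in WT, against 31.4% and 6.39% of all genes. In Txnip-/- none was called higher and 2 lower, against 30.9% and 8.27%.

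**Figure D5:**
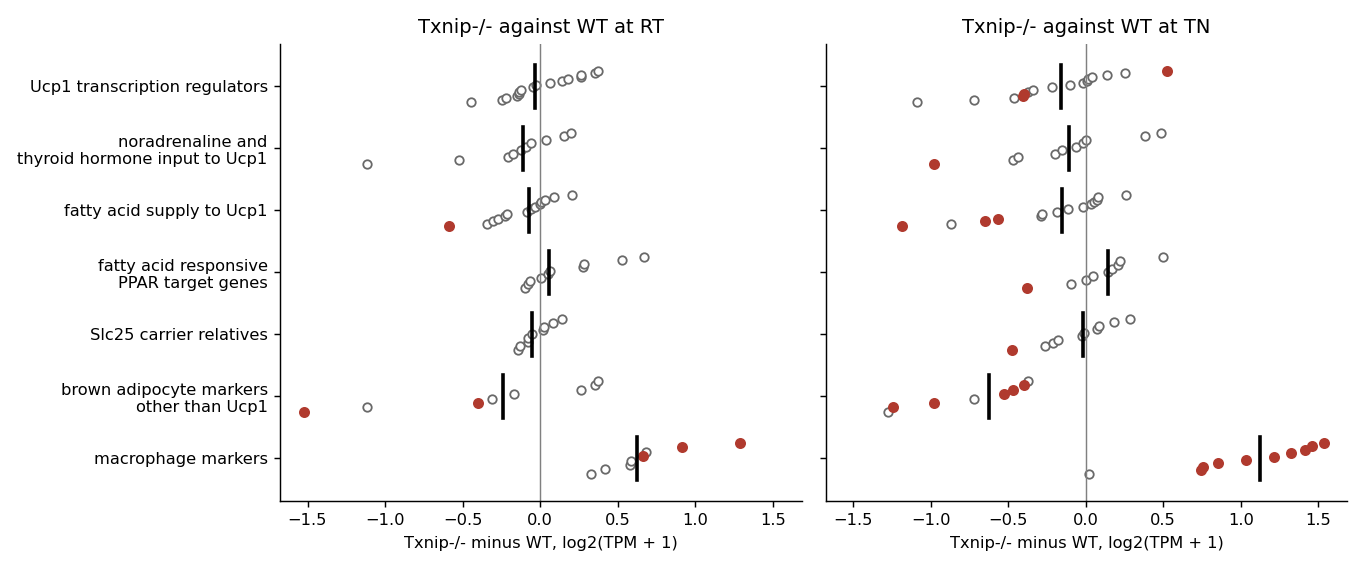
Genotype difference (Txnip-/- minus WT in log2(TPM + 1), horizontal axis) of each tested gene in 7 lists at RT (left) and TN (right). Filled red points were called, open points were not, and black bars are list medians. Macrophage markers lie to the right and brown adipocyte markers to the left at TN, with medians of 1.12 and −0.62.

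Macrophage and lymphocyte markers were set beside Ucp2. Of 10 macrophage markers, 9 were called higher in Txnip-/- at TN and 3 of 8 tested at RT, with none called lower, where 6.49% of all genes were called higher at TN and 0.76% at RT. By temperature in WT, 8 of the 10 were called higher at TN, against 31.4% of all genes, and in Txnip-/- 9, against 30.9%. Their summed level was 52.2 to 57.9 TPM (WT) and 88.8 to 154 TPM (Txnip-/-) at RT and 120 to 213 TPM (WT) and 346 to 476 TPM (Txnip-/-) at TN, and none of them was at 0 in a whole group. Most of each sum was Lyz2, at means of 35.1, 90.0, 116 and 314 TPM in these groups, so the sums say little of the others. The 10 lymphocyte markers summed to 4.01 to 5.40, 7.25 to 8.88, 8.39 to 15.8 and 31.6 to 36.3 TPM in the same order, with 4 of 7 tested called higher in Txnip-/- at TN and 1 of 4 at RT. By temperature, 5 of 6 tested were called higher at TN in WT and 6 in Txnip-/-, against 31.4% and 30.9% of all genes. Macrophages and lymphocytes are known to express Ucp2, and the TN Txnip-/- libraries were highest for both lists as for Ucp2. The part of these cells in the Ucp2 values was not tested.

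Skeletal muscle markers were set beside Ucp3. They summed to 5.89 to 6.49 TPM in RT WT and 22.6 to 54.1 TPM in RT Txnip-/-, with 6 of 7 tested called higher (0.76% of all genes), while Ucp3 was not called there. The 1 other differed downwards. Most of those called averaged 0.468 TPM or less in RT WT and passed the filter on low values only through RT Txnip-/-, so their count is no independent support. At TN, where Ucp3 was called, the sums overlapped between WT (7.31 to 22.1 TPM) and Txnip-/- (7.34 to 19.5 TPM), and limma called none of the 3 markers tested (1 with an unadjusted p under 0.05, as for 25.6% of all genes at TN). Between temperatures in Txnip-/-, where Ucp3 was called lower at TN (−0.91), 6 of 7 tested muscle markers were also called lower (8.27% of all genes) and 1 higher, with a median difference of −1.81 on the log2 scale. Those called lower were the ones called higher in RT Txnip-/-, so both counts rest on the same RT Txnip-/- libraries. In WT, where Ucp3 was lower at TN as well (−2.34), 1 of the 7 was called higher and none lower, with a median of 0.52. Of all genes, 31.4% were called higher there and 6.39% lower. The part of muscle RNA in the Ucp3 values was not tested. Endothelial markers, of 6 tested, had 1 called higher in Txnip-/- at TN (6.49% of all genes) and none called at RT (1.49%), where limma gave 1 an unadjusted p under 0.05 (16%). At TN 5 of the 6 differed upwards, as Ucp2 did. At RT 5 differed downwards (median −0.08 on the log2 scale), where Ucp2 differed by 0.51. By temperature, 3 of the 6 were called higher at TN in WT and 6 in Txnip-/-, against 31.4% and 30.9% of all genes, the direction of Ucp2. Their part in the Ucp2 values was not tested.

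Beside Ucp1, 8 other brown adipocyte markers were followed. In Txnip-/- at TN 5 of them were called lower (2.17% of all genes) and none higher, among them Cox8b, a muscle and brown fat isoform of cytochrome c oxidase, from 2685 to 1134 TPM (−1.24 on the log2 scale, limma adjusted p = 0.00297). Their summed level, mostly Cidea, Cox8b and Cox7a1, did not overlap between TN WT (6100 to 6485 TPM) and TN Txnip-/- (3466 to 3989 TPM). At RT, where Ucp1 was not called, 2 were called lower (Cox7a1 and Elovl3, against 0.726% of all genes) and 3 of the 8 differed upwards without a call. Between temperatures 4 of the 8 were called lower at TN in WT (6.39% of all genes) and 6 in Txnip-/- (8.27%), with none called higher. In WT the 4 not called were Ppargc1a at −0.86, Cidea at −0.05, Prdm16 at −0.02 and Ebf2 at 0.53 on the log2 scale. Some of these markers are in the lists above as well. The 6 general adipocyte markers gave no call by limma in either genotype comparison, where 1.49% of all genes were called at RT and 8.66% at TN. An unadjusted p under 0.05 was given by limma for 2 at RT and 3 at TN, against 16% and 25.6% of all genes. Their sums overlapped at TN, at 15808 to 17410 TPM in WT and 15694 to 17393 TPM in Txnip-/-. Most of each sum was Fabp4, with TN means of 13062 TPM (WT) and 13362 TPM (Txnip-/-), so the sums say little of the others. Of those, at TN Pparg differed by −0.46, Cidec by −0.34, Plin1 by −0.28, Lipe by −0.02 and Adipoq by 0.18 on the log2 scale, without a call.

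The genes whose levels most resembled each member were ranked by Pearson's r of log2(TPM + 1) over the 12 libraries among 6599 genes with a mean of at least 10 TPM. The libraries share genotype, temperature and dissection, so these values describe the pattern only. For Ucp1 they were Acsl1, which activates fatty acids (r = 0.992), the complex I subunit Ndufb5 (0.991), Slc25a20 (0.989), Mtch2 (0.988) and Prelid3b (0.985). The size of the change was smaller in them: Acsl1 ranged from a mean of 1092 TPM in RT WT to 323 TPM in TN Txnip-/-, and Ndufb5 from 530 to 408 TPM. Ucp2 was most like the matrix proteoglycan gene Bgn (0.973), Chid1 (0.972), Mir5107 (0.970), the endothelial gene Plvap (0.967) and the MHC class II gene H2-Eb1 (0.964). Ucp3 was most like Fcor (0.976), Id1, an inhibitor of helix-loop-helix factors (0.970), Galnt2 (0.959), Srrd (0.959) and the glycolytic regulator Pfkfb3 (0.958). Id1 had the group order of Ucp3, with mean TPM of 100.2 (WT) and 81.7 (Txnip-/-) at RT and 30.3 (WT) and 51.6 (Txnip-/-) at TN.

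Genes lying within 250 kb of the 3 members were compared as well. Near Ucp1, none of the 4 tested of 7 genes was called by genotype at either temperature by limma, nor had an unadjusted p under 0.05, Tbc1d9 being nearest before it and Elmod2 after it, 14176 bases away. Ucp2 and Ucp3 share 11 other neighbours, of which 8 were tested, and none of those 8 was called by genotype or had an unadjusted p under 0.05. With 1.49% of all genes called at RT and 8.66% at TN, a count of 0 among so few genes is near that of all genes. C2cd3, whose end lies 2832 bases before Ucp3, differed by −0.09 on the log2 scale at TN (limma adjusted p = 0.617). Dnajb13, on the other strand 3391 bases past Ucp2, averaged 0.622 TPM and was not tested. By temperature, 1 of these 8 was called in WT (Pgm2l1) and 1 in Txnip-/- (Plekhb1), and near Ucp1 1 of the 4 in WT (Rnf150, 0.42, adjusted p = 0.03) and none in Txnip-/-, each of them higher at TN, where 37.8% and 39.2% of all genes were called.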

How the data were processed

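Poly-A RNA of interscapular BAT was sequenced by the authors as single-end 75-base reads, aligned to mm10 with STAR 2.7.5a and counted on exons with HOMER 4.11.1, keeping 1 transcript per gene. The deposited TPM of 12 libraries were analysed; counts per gene were not analysed here. TPM keep no depth, so counting error was not computed. The authors also deposited, per temperature, log2-scale values made by a transform the tables do not name, used as an alternative, and a transcript length in bases. Their fold changes and p-values from DESeq2 were not used. The kit as named does not mark strand, and the counting strand is not given in the sources used here.

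Genes averaging at least 1 TPM were tested on log2(TPM + 1) with limma 3.58.1 in R 4.3.3 (moderated with a trend, Benjamini-Hochberg over all genes tested), a pipeline tested on simulated data. Genotype was tested on the 6 libraries of a temperature, temperature and interaction on all 12. Called meant a fitted level under 0.8 of the other group's with an adjusted p below 0.05, the interaction an adjusted p below 0.05. Shares and ratios were compared by exact permutation. Genes named were the members, Txnip, per list the called genes of largest and smallest change at TN, Ppargc1a, Prdm16, Pparg, Adrb3, Dio2, the most abundant Slc25 carrier, the 5 most alike genes and the nearest neighbours. Ppara, Ebf2, Cpt1b, Cox8b, Cox7a1, Elovl3, Cidea, Fabp4, Cidec, Plin1, Lipe, Adipoq, Lyz2, Rnf150, Pgm2l1 and Plekhb1 were named after their values were seen. The list of PPAR target genes leaves out 1 gene that is not reported here. Members and lists were chosen with earlier results of these data known. Alternatives were other pseudocounts, filters and scalings, a replicate block and each library left out. Promoters came from RefSeq (GRCm38.p6). Alignments used Biopython 1.88 and figures matplotlib 3.10.9 in Python 3.11.15.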

Additional observations from a re-analysis of the deposited data

How the results depend on the processing

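Of 246 alternative values of the 15 log2 differences of Ucp1, Ucp2 and Ucp3, 237 kept both direction and side of the threshold, 6 lost a call, 3 gained one and none reversed. The 6 all concern Ucp2 between temperatures in WT, 0.26 with upper-quartile scaling (limma adjusted p = 0.101), 0.18 with median centring, and 0.27 to 0.37 in the 4 fits without one library that lost the call, where all 12 such fits ranged from 0.27 to 0.48. The 3 gained were Ucp1 at RT, which ranged from −0.61 to −0.30 with one library left out, and the Ucp3 interaction, which ranged from 1.29 to 1.58 (2 of the 3). The cause was not tested. At RT, 178 genes were called in all, 44 when all genes above 0 were tested, 272 with all 12 libraries in the fit, and 2 to 159 with one library left out, the lowest without RT WT replicate 2. At TN, 1116 were called, 621 when all genes above 0 were tested and 456 to 1005 with one left out, the lowest without TN Txnip-/- replicate 1. The interaction called 1 gene, and 1 to 6 with one left out. Of 168 alternative values of shares and ratios, 161 kept their direction. The 7 that reversed were small differences. With one library left out, the genotype difference in Ucp3 share at RT ranged from −0.15 (without RT Txnip-/- replicate 1) to 0.58 percentage points, and the temperature difference in WT from −0.48 to 0.25 (positive without TN WT replicate 1 or, at 0.083, RT WT replicate 3). For the log2 ratio of Ucp3 to Ucp1 the ranges were −0.050 to 0.29 at RT (negative without RT Txnip-/- replicate 1 or, at −0.0020, RT WT replicate 1) and −0.20 to 0.24 between temperatures in WT (positive without TN WT replicate 1 or, at 0.09, RT WT replicate 3).

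Same-numbered libraries did not deviate together in a way that would pair them: the r of their deviations was 0.297, −0.022 and 0.21 at RT and 0.042, 0.023 and −0.036 at TN, and not every library correlated best with its own number. With the replicate number as a block, 100 genes were called at RT, 977 at TN and 4 for the interaction, and no call changed among the 9 results on Ucp1, Ucp2 and Ucp3 so tested. Ucp2 at RT came nearest, at 0.51 with a limma adjusted p of 0.0528.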
